A study of Saccharomyces cerevisiae with 16 samples.

Results

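Yeast takes up sulphate and reduces it to sulphide before the sulphur enters methionine and cysteine, and 9 genes of this route are described here through a time course of phosphate starvation. They were taken by name from the 6648 genes of the deposited table: SUL1 and SUL2 (sulphate permeases of the plasma membrane), MET3, MET14 and MET16 (activation and first reduction of sulphate), MET5 and MET10 (sulphite reductase), MET1 (the siroheme cofactor of that enzyme) and MET2 (the carbon acceptor of sulphide). Of the 9, 8 were listed in the same 14 libraries and SUL1 in 2, so most values below are those of the 8.

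The route works as a chain. Sulphate is coupled to ATP by ATP sulphurylase (Met3), the product APS is phosphorylated by APS kinase (Met14), the resulting PAPS is reduced to sulphite by PAPS reductase (Met16), and sulphite reductase (Met5 and Met10) makes sulphide. Met17 then joins sulphide to the O-acetylhomoserine made by Met2. In rich supply of methionine the pathway genes are held low, and they are switched on through the activator Met4, which reaches their promoters with the DNA-binding proteins Cbf1, Met31 and Met32. Cbf1 binds the E-box CACGTG, the same core that Pho4, the activator of the phosphate starvation genes, recognises.

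RNA of a Saccharomyces cerevisiae strain, labelled pho84pr-YFP, delta-phm4 in the BY4741 background, was sequenced in 16 libraries. The pho84pr-YFP part is a fluorescent reporter on the promoter of the phosphate transporter gene PHO84, and PHM4 is another name of VTC1, a subunit of the vacuolar polyphosphate polymerase. The 0 min library is of cells growing in high phosphate. The other 15 are of cells that had been washed and put into medium without phosphate, at steps of 15 min up to 225 min. Each time has a single library. All 16 libraries, 0 min included, are labelled as carrying the deletion, and no library labelled as PHM4 intact was analysed here, so its effect cannot be read from these values. BY4741 is known to lack MET17, LEU2, HIS3 and URA3. Loss of MET17 closes the main exit of sulphide and makes the strain depend on methionine in the medium, whose content the labels do not give. These are bulk samples, in which fewer cells expressing a gene and less RNA per cell cannot be told apart.

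As checks of the strain and the starvation, PHO84 was at 5.80 at 0 min and 9.61 at 15 min (log2), MET17 and LEU2 were listed in no library, HIS3 in 1 and URA3 in 3. VTC1, the gene labelled as deleted, was listed in all 16, at a log2 value of 6.67 to 7.51 in 14 libraries (349 reads at 0 min) and of 10.80 and 10.90 in those labelled 195 and 210 min. Whether these reads come from an intact VTC1 gene was not tested, so the genotype is given here only as labelled. Whether the libraries labelled 195 and 210 min come from the same strain as the rest was not tested. Depth recovered from the steps between low values, with the lowest taken as 10 reads, was 603370 to 3437661 reads in the 14 deeper libraries. The libraries labelled 195 and 210 min held 40984 and 45009 reads. All 9 genes lay under their floors, 7.93 and 7.80 on the log2 scale, so no value of these genes rests on them; 1 and 3 of the 8 genes ever exceeded those levels elsewhere. The a-cell markers MFA1, MFA2 and STE2 were listed in all 16 libraries and BAR1 in 14, with a summed level of 1980 to 6780 reads per 1000000 reads (CPM). The alpha-cell markers MF(ALPHA)1 (8 libraries) and STE3 (14) summed to at most 54.6 CPM where listed, and MF(ALPHA)2 was listed in none. In the libraries labelled 195 and 210 min all of the alpha-cell markers lay under the floors of 244 and 222 CPM, so their levels there are unknown.

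The stretch of each promoter that holds the sites named above is shown for the 8 genes with an E-box. The sequences run 5′ to 3′ on the gene's strand and come from RefSeq build R64, the build the submitters name. Capitals mark matches to CACGTG (which reads the same on both strands) and to TGTGGC, the core bound by Met31 and Met32, or its reverse complement GCCACA. The 2 motifs do not overlap in these windows. They lie at chrXII:323200-323271 (SUL2, plus strand), chrX:455852-456000 (MET3, plus), chrXI:439562-439623 (MET14, minus), chrXVI:877774-877820 (MET16, minus), chrX:683545-683628 (MET5, minus), chrVI:213053-213122 (MET10, plus), chrXI:571334-571359 (MET1, plus) and chrXIV:116986-117038 (MET2, plus).
SUL2: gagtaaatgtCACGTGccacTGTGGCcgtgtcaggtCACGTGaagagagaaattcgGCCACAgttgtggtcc
MET3: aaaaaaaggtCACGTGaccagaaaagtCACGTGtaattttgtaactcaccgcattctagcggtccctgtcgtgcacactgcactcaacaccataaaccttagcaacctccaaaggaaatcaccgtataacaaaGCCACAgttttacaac
MET14: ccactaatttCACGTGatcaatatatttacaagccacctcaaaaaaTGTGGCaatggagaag
MET16: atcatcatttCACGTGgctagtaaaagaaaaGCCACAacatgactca
MET5: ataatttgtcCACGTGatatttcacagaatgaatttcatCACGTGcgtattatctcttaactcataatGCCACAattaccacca
MET10: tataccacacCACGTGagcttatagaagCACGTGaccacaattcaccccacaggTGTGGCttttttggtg
MET1: tgccattatgCACGTGacattacaaa
MET2: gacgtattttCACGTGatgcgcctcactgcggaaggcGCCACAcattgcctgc

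Within the 500 bases before the start codon, 8 of the 9 genes had an E-box, against 374 of 6000 protein-coding genes (6.23%). The Met31 and Met32 core was found for 7 of the 9 genes and 854 of the 6000 (14.2%), and both motifs together for 7 of the 9 and 69 of the 6000 (1.15%). SUL2, MET3, MET5 and MET10 carried a pair of E-boxes each. The E-box closest to its gene was that of MET16, whose first base lay at position -178 from the start codon, and the farthest was in MET3, at -377. SUL1 had no match to either motif in this window. MET1 had an E-box and no Met31 and Met32 core. In the other sulphur lists, the E-box was found for 5 of 6 regulators, 3 of 4 genes next to sulphide, 3 of 6 of transsulphuration, 2 of 4 of homoserine, 3 of 8 of the methionine cycle and 1 of 8 of uptake. The core was found, in the same order, for 4, 2, 3, 1, 4 and 8 genes. A match shows letters, not binding, which was not measured. The coding regions themselves lie at chrII:789235-791814 (SUL1), chrXII:323544-326225 (SUL2), chrX:456239-457774 (MET3), chrXI:438777-439385 (MET14), chrXVI:876847-877632 (MET16), chrX:678957-683285 (MET5), chrVI:213312-216419 (MET10), chrXI:571612-573393 (MET1) and chrXIV:117349-118809 (MET2).

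**Figure D1:**
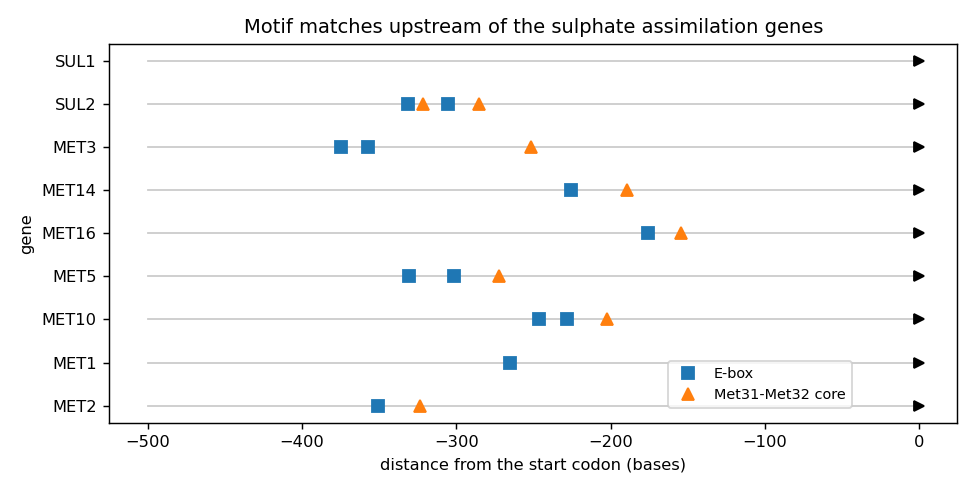
Positions of matches to the E-box (blue squares) and to the Met31 and Met32 core (orange triangles) in the 500 bases before the start codon (arrowhead) of the 9 genes, in bases from the start codon. The matches of 8 genes lie between positions -377 and -152, and SUL1 has none.

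The 0 min library was set beside each starvation library to ask how the route stood once cells had been washed and put into medium without phosphate. Washing, the change of medium and the loss of phosphate cannot be told apart in these ratios. At 15 min, 6 of the 8 genes were at least 2-fold above 0 min, where 11.9% of the 4495 genes listed in the 14 deeper libraries were. The median log2 ratio of the 8 genes was 2.15 (range 0.92 to 2.45), against 0.24 for all genes. The ratio then was lower at 30 min, with a median of 0.92 and 3 of 8 genes 2-fold higher (16.2% of all genes), and high again at 60 min, with a median of 2.22 and 8 of 8 genes 2-fold higher (22.5% of all genes). By 225 min the median was 1.03 and 4 of 8 genes were 2-fold higher (24.6% of all genes), so the count at the end lay closer to that of all genes than at 15 or 60 min. The 0 min reference is a single library and no test was made against it. Its median gene stood lower than in the starvation libraries, by 0.22 to 0.42 as the median ratio of all genes, a shift that enters every ratio, and the median of the 8 genes exceeded that of all genes by 1.91 at 15 min, 0.69 at 30 min, 1.87 at 60 min and 0.66 at 225 min.

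**Figure D2:**
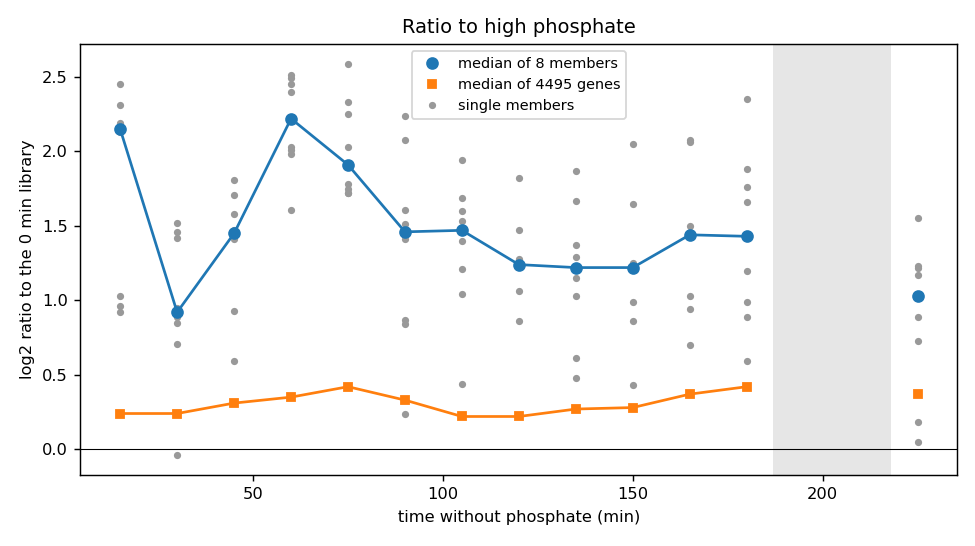
Log2 ratio to the 0 min library against time without phosphate, for single members (grey), their median (blue) and the median of 4495 genes (orange); grey shading covers the libraries labelled 195 and 210 min, which list none of the members. The blue line stands at 2.15 at 15 min, 0.92 at 30 min and 2.22 at 60 min, while the orange line stays between 0.22 and 0.42.

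Of the permeases, SUL2 was listed in 14 libraries and SUL1 in 2. Their 95% Poisson intervals overlapped at 15 min, at 16.2 to 33.4 CPM for SUL2 and 7.88 to 21.0 CPM for SUL1. At 45 min they lay apart, at 26.8 to 44.2 and 3.31 to 11.2 CPM. SUL2 had a log2 value of 3.64 (43 reads) at 0 min and of 4.56, 4.54, 5.12, 6.05 and 5.37 at 15, 30, 45, 60 and 75 min. From 90 to 150 min SUL2 was at 4.48, 5.24, 4.88, 4.93 and 5.69, and at 165, 180 and 225 min at 5.73, 6.0 and 4.54. All 13 starvation values lay above 0 min, as they did for 36.6% of 4495 genes. High points came at 60 and 180 min, at 5.29 and 5.11 times the 0 min level. The depth is small here: the 30 min value rests on 14 reads, with a 95% Poisson interval of 3.66 to 5.28 that covers counting error alone. SUL1, the other permease, was listed only at 15 min (13.3 CPM, 18 reads, interval 7.88 to 21.0 CPM) and at 45 min (6.40 CPM, 12 reads). At 0 min it lay under the floor of 2.91 CPM, and the point value at 15 min was 4.57 times that floor. This ratio leaves out the counting error of the 18 reads. In the other 11 deeper starvation libraries it lay under floors of 4.38 to 16.6 CPM, and SUL1 entered no test.

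Among the activation and reduction enzymes, MET3, MET14 and MET16, the APS kinase gene MET14 had the widest range. Its log2 value was 5.23 at 0 min, then 7.68, 6.75, 6.81, 7.72 and 7.82 from 15 to 75 min. It was 7.31, 6.76, 6.47, 6.26 and 6.09 from 90 to 150 min, and 6.66, 6.22 and 5.41 at 165, 180 and 225 min. The gene was thus high at 15 min and again at 60 and 75 min, 5.45, 5.62 and 6.02 times its 0 min level, and at 225 min it stood at 1.14 times that level, with counting intervals of 5.04 to 5.76 at 225 min and 4.97 to 5.48 at 0 min. Every library from 15 to 75 min lay above every one of 165, 180 and 225 min. MET14 was the only one of the 8 genes with such a separation, which was seen in 8.13% of the 4500 genes with a value at each of these 13 times.

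MET16, the PAPS reductase gene, stayed higher at the end. It was at 5.68 at 0 min, at 7.99, 7.14, 7.49, 8.19 and 7.92 from 15 to 75 min, between 6.89 and 7.49 from 90 to 150 min, and at 7.73, 7.34 and 6.90 at 165, 180 and 225 min. The peak at 60 min was 5.71 times the 0 min level and the last value 2.33 times. MET3, the ATP sulphurylase gene, started highest of the 8 at 6.12 and reached 7.15, 6.98, 6.71, 7.73 and 7.84 from 15 to 75 min, at most 3.29 times the 0 min level. From 90 min on it lay between 6.18 and 6.98, and at 225 min it was 1.04 times the 0 min level. Recovered reads of MET3 were whole numbers in 4 of 14 libraries, and those of MET2 in 10 of 14, against 14 of 14 for the other listed genes. No other annotated protein-coding gene overlaps either coding region, and whether reads shared with another locus enter these values was not tested.

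The sulphite reductase genes MET5 and MET10 had like time courses. MET10, the alpha subunit, was at 5.58 at 0 min and at 7.72, 6.54, 6.51, 7.57 and 7.62 from 15 to 75 min, then between 6.63 and 7.20 up to 150 min and at 6.52, 6.47 and 6.31 at 165, 180 and 225 min. MET5, the beta subunit, was at 4.63 at 0 min, at 6.79, 6.05, 6.04, 7.08 and 6.96 from 15 to 75 min, between 5.84 and 6.87 from 90 to 150 min, and at 6.09, 6.51 and 5.86 at 165, 180 and 225 min. Both were high at 15 min, low at 30 and 45 min and high again at 60 and 75 min. Per kilobase of coding sequence the level of MET10 was above that of MET5 in all 14 libraries, by 0.99 ± 0.32 on the log2 scale (SD, range 0.44 to 1.47). How reads are spread along a transcript is not given in the sources used here, so this difference in level between genes is uncertain.

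MET1 and MET2 stand at the edges of the route. MET1, needed to make siroheme, was at 4.41 at 0 min and at 6.60, 5.12, 6.12, 6.41 and 6.19 from 15 to 75 min. It stayed between 5.4 and 6.16 afterwards, and at 225 min was 2.92 times its 0 min level, the highest such ratio of the 8 genes. MET2, the homoserine O-acetyltransferase gene, was at 5.01 at 0 min and at 5.97, 4.98, 6.45, 7.04 and 6.76 from 15 to 75 min, then between 5.63 and 6.42. Its 30 min value, from 19 reads, was the only one of the 104 starvation values of the 8 genes below the gene's 0 min level. Thus 7 of the 8 genes lay above 0 min in all 13 deeper starvation libraries, against 36.6% of 4495 genes.

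**Figure D3:**
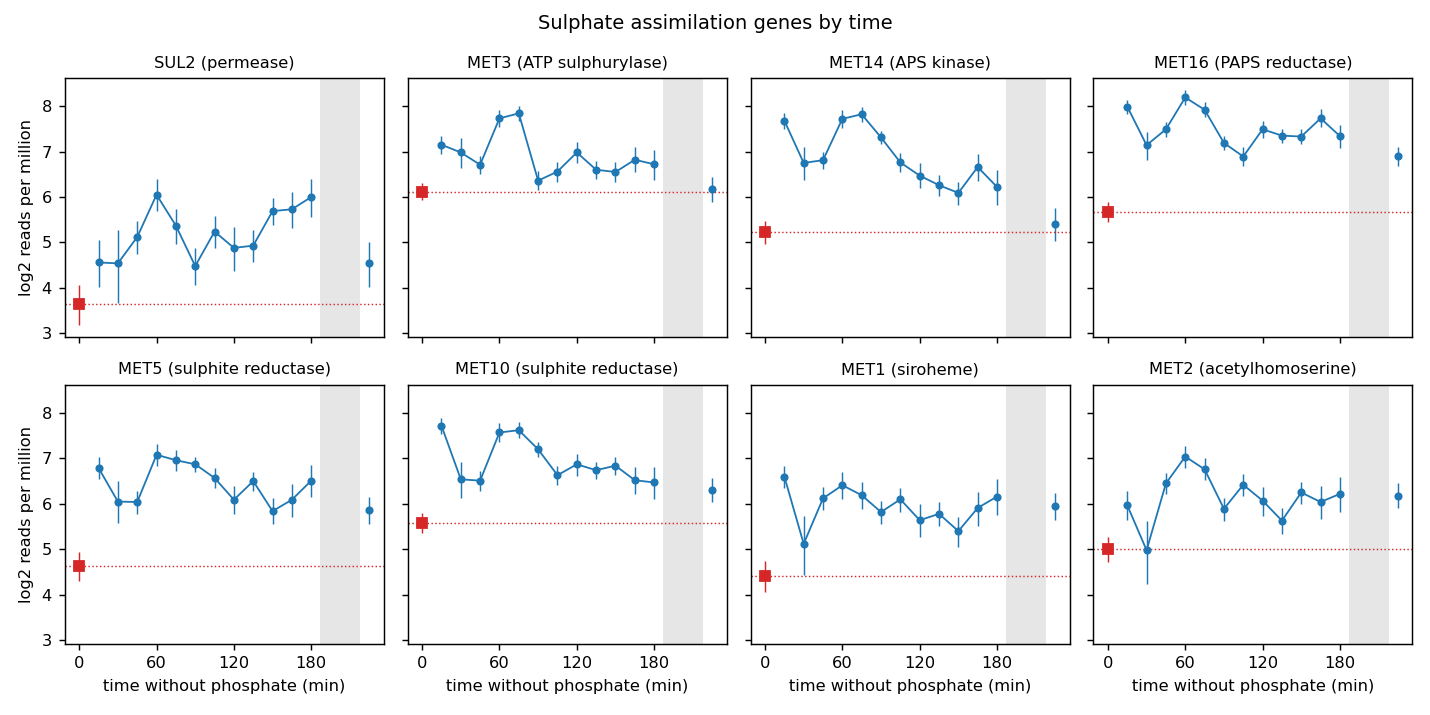
Log2 CPM against time without phosphate for the 8 genes listed in 14 libraries; red squares and dotted lines give the 0 min library, blue points the starvation libraries, bars 95% Poisson intervals of the recovered reads, and grey shading the libraries that list none of them. MET14 stands at 5.41 at 225 min, near its 0 min value of 5.23, while MET1 ends at 5.95 against 4.41.

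The early time course had a dip between high points. The 15 min counting interval lay wholly above that of 30 min for 6 of 8 genes, all but SUL2 and MET3. The 60 min interval lay above that of 45 min for 7 of 8, all but MET1. Neither count of intervals was made over all genes. In 7 of 8 genes the mean of 30 and 45 min lay below 15 min and below the mean of 60 and 75 min. The same held in 33.4% of 4500 genes. The step from 45 to 60 min was at least 0.5 (log2) in 7 of 8 genes, against 10.5% of 4500 genes, with 1.06 for MET10, 1.04 for MET5, 1.02 for MET3 and 0.93 for SUL2, and a median over all genes of 0.04. The step from 15 to 30 min was -1.48 for MET1, -1.18 for MET10, -1.0 for MET2 and -0.93 for MET14, with a median over all genes of -0.02. The 30 min library had the fewest reads of the 14 deeper ones, 603370, and the part of depth in the dip was not tested. At 45 min, with 1874049 reads, the genes differed: MET1 (6.12), MET2 (6.45), SUL2 (5.12) and MET16 (7.49) stood above their 30 min values, MET14 (6.81), MET5 (6.04) and MET10 (6.51) near theirs, and MET3 (6.71) below. The highest of the 13 values was at 60 or 75 min for 6 genes and at 15 min for MET10 and MET1; over all 4500 genes 14.6% were highest at 60 or 75 min and 10.6% at 15 min. These patterns were picked after the values were seen and carry no test.

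A straight line through the starvation libraries measures the drift of each gene between 15 and 225 min. Lines were fitted with limma for 5282 genes; a call needed both a drift of 1 or more (log2) and p below 0.05 after Benjamini-Hochberg adjustment over those genes. MET14 fell by 1.90 ± 0.40 (SE, 13 libraries; limma adjusted p = 0.0332), the only one of the 8 genes called, where 0.284% of all genes tested fell and 1.61% rose. The fitted changes of MET10 (-0.94 ± 0.37, adjusted p = 0.172), MET3 (-0.90 ± 0.38, 0.206), MET5 (-0.64 ± 0.37, 0.351) and MET16 (-0.61 ± 0.35, 0.351) lay below 0 and did not pass. Those of MET1 (-0.23 ± 0.38), MET2 (0.10 ± 0.46) and SUL2 (0.46 ± 0.50) were smaller than their standard errors. Single libraries moved these 3: SUL2 was at 1.19 without the 225 min library and 0.19 without that of 180 min, MET2 at -0.39 without 30 min, and MET1 at 0.07 without 15 min, so no direction is read from them. The median of the 8 genes was -0.62, and that of all genes 0.16. Whether the slope of MET14 differs from that of the other 7 was not tested. The MET14 call was lost without the library of 15, 150, 180 or 225 min (limma adjusted p = 0.116, 0.0529, 0.0715 and 0.111), and with the lag-1 autocorrelation of 0.32 removed the change was -1.99 at adjusted p = 0.104; over all 27 alternatives the adjusted p ran from 0.00924 to 0.254.

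Split into 3 runs of 5 libraries, none of the 8 genes passed limma between 15 to 75 and 90 to 150 min (0.115% of genes called in either direction), between 90 to 150 and 165 to 225 min (2.73%) or between 15 to 75 and 165 to 225 min (1.40%). At an unadjusted p under 0.05 the numbers were 3 (MET3, MET14 and MET16), 0 and 3 (MET3, MET14 and MET10) of 8. Of all genes, 9.39%, 26.1% and 20.6% lay under it. With voom weights from the recovered reads, limma called 0, 0 and 1 of the 8 genes. Over 4500 genes it called 3 rising and 5 falling, then 152 and 154, and last 92 and 143. MET14 had a mean log2 value of 7.36 ± 0.53 (SD, 5 libraries), 6.58 ± 0.48 (5) and 6.10 ± 0.63 (3) in the successive windows; its change from the first to the last was -1.26 ± 0.35 (SE, adjusted p = 0.0675), and it passed at adjusted p = 0.0321 without the libraries labelled 195 and 210 min, which hold no MET14 value. MET10 went from 7.19 ± 0.61 to 6.85 ± 0.21 and 6.43 ± 0.11, and MET3 from 7.28 ± 0.49 to 6.61 ± 0.23 and 6.57 ± 0.35. SUL2 had 5.13 ± 0.63, 5.05 ± 0.45 and 5.42 ± 0.78. From the first window to the middle one the difference was below 0 in 8 of 8 genes and in 2834 of all 5197 tested. In the 8 it ran from -0.78 for MET14 to -0.08 for SUL2, with a median of -0.34, against -0.03 over all genes. A spline of time with 3 degrees of freedom called none of the 8 genes and 0.473% of all genes. At an unadjusted p under 0.05 it took 1 of 8, MET14 (limma adjusted p = 0.117). That is no larger a share than the 16.5% of all genes. With voom weights the spline called 0 of the 8 and 154 of 4500 genes.

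Per kilobase of coding sequence, MET14 and MET16 had the highest levels in the first window, at 283 ± 94.4 and 282 ± 77.5 CPM per kb (SD, 5 libraries), a difference far inside their spread. MET3 followed at 106 ± 35.8, with a range of 68.3 to 149 that did not meet that of MET16, 179 to 372. Below it came MET2 (57.8 ± 26.7), MET10 (50.2 ± 19.0), MET1 (40.3 ± 13.1), MET5 (23.2 ± 7.54) and SUL2 (14.1 ± 6.56). The range of each overlapped that of its neighbour. The genes share these libraries, and neighbours in this order were not compared within each library. In the last window MET16 stood at 209 ± 59.4 and MET14 at 119 ± 47.9 (3 libraries), with ranges of 152 to 271 and 70.0 to 166. Although these ranges overlapped, both genes were highest at 165 min and lowest at 225 min. Within each of those libraries MET16 thus lay above MET14. At 0 min the order was MET16 at 65.1, MET14 at 61.6 and MET3 at 45.3 CPM per kb.

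The genes on either side of the route were read the same way. In the methionine cycle, 3 of 7 tested genes fell over the starvation libraries and 0 rose, with a median change of -1.25. MHT1, which methylates homocysteine from S-methylmethionine, fell by 2.28 ± 0.45 (SE; limma adjusted p = 0.025), the S-adenosylmethionine synthetase gene SAM2 by 2.05 ± 0.40 (0.0225) and the methionine synthase gene MET6 by 1.59 ± 0.30 (0.0166). Of 7 tested genes for uptake of other sulphur sources, MMP1, the S-methylmethionine permease, fell by 2.63 ± 0.47 (0.0136) and no other passed (median -0.95). Each of these 4 calls was lost without the 225 min library (limma adjusted p = 0.0543 for MHT1, 0.0636 for SAM2, 0.0557 for MET6 and 0.0664 for MMP1) and with the autocorrelation removed (0.145, 0.118, 0.104 and 0.0699). That of MHT1 was also lost without the library of 15, 165 or 180 min (0.116, 0.0577 and 0.0641). SAM2 and MET6 have values in the libraries labelled 195 and 210 min, and without those their changes were -2.68 and -2.01. Whether any of these slopes differs from that of MET14 was not tested. None of 3 genes next to sulphide (median -0.84), 4 of homoserine synthesis and use (-0.31) or 6 of transsulphuration and glutathione (-0.28) passed the slope test. MET8, which works with Met1 on siroheme, was at -1.31 ± 0.39 (0.0879). MET13 and the sulphonate transporter gene YIL166C had no value in any library. At 15 min the median log2 ratio to 0 min was 2.15 for the 8 genes, 0.70 for the methionine cycle, 1.31 for uptake, 0.49 next to sulphide, 0.17 for homoserine and 0.67 for transsulphuration. Genes at least 2-fold higher at 15 min numbered 3 of 7 in the methionine cycle and 5 of 7 in uptake. They numbered 1 of 3 next to sulphide, 0 of 4 in homoserine and 2 of 6 in transsulphuration, against 11.9% of 4495 genes. The sulphatase gene BDS1, at 2.93, had the highest ratio of these lists.

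**Figure D4:**
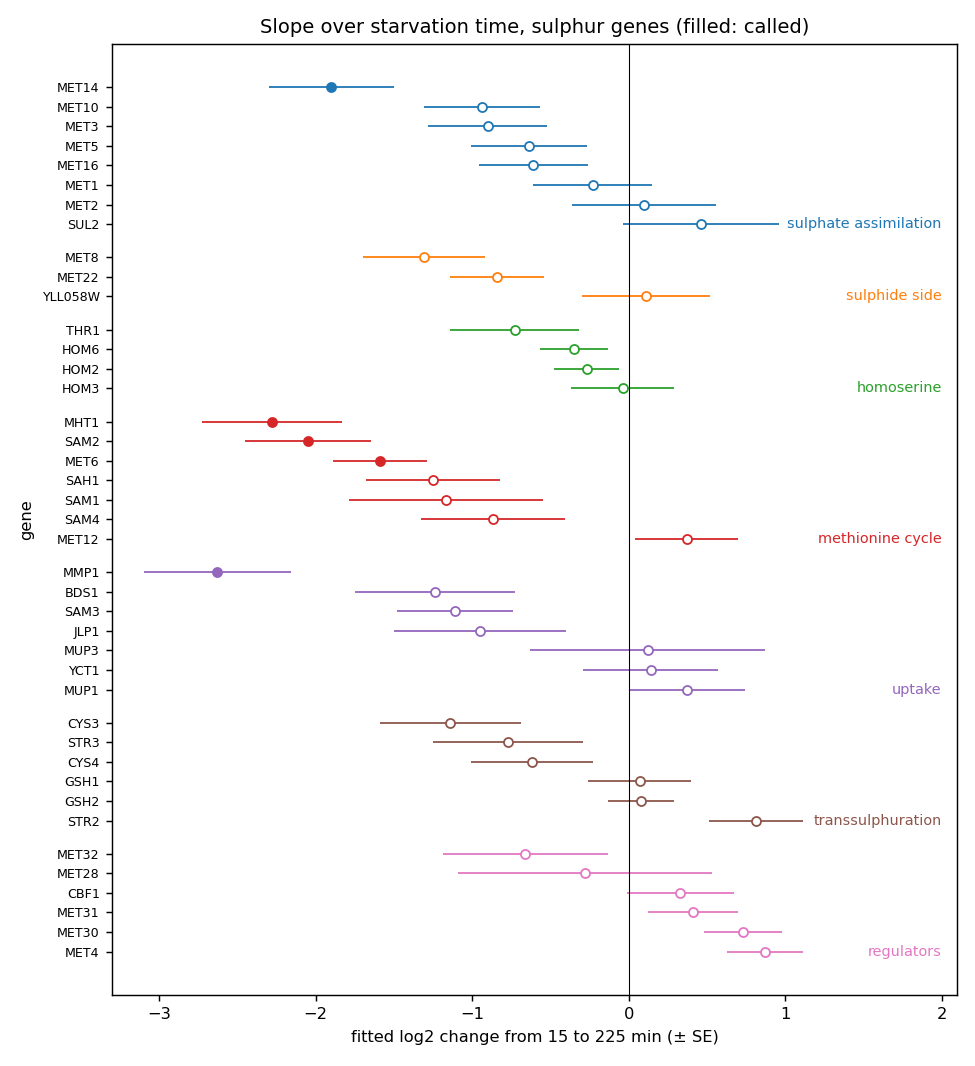
Fitted log2 change from 15 to 225 min with its SE for each tested sulphur gene, by list; filled points passed the test. MET14 at -1.90, MHT1 at -2.28, SAM2 at -2.05, MET6 at -1.59 and MMP1 at -2.63 are the filled points, all below 0.

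Among the regulators, the E-box binding factor gene CBF1 was at 3.95 at 0 min and at a mean of 6.14 ± 0.23 (SD, 5 libraries) in the first window, and at 15 min 2.17 (log2) above 0 min. MET32, a partner of Met4, was 2.74 higher at 15 min and MET28, another partner, 2.88 higher. The 0 min values under these ratios rest on 27 reads for MET32 and 11 reads for MET28. That of MET28, 1.68, lay just above the floor of the 0 min library, 1.54 on the log2 scale, so the size of its ratio is uncertain. MET28 had no value at 30 min. The activator gene MET4 (-0.01), MET31 (-0.45) and MET30 (0.28), which encodes the ubiquitin ligase subunit that restrains Met4, lay near or below their 0 min level. None of the 6 regulators passed the slope test, at a median of 0.37; MET4 was at 0.87 ± 0.24 (limma adjusted p = 0.0691).

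The 8 genes varied together to different degrees. The Pearson r of each gene with the mean of the other 7 over the 13 deeper starvation libraries was 0.82 for MET16, 0.78 for MET3, 0.76 for MET10, 0.74 for MET14 and MET5, 0.64 for MET1, 0.59 for MET2 and 0.31 for SUL2. These libraries are successive samples that share a depth with every gene in them, so r is given as a description. Of 4492 other genes, the 8 most like the mean of the members by r were YIF1 and NMT1 (0.88), MET32, NOT5 and YML101C-A (0.86), EMC4 (0.84), and YDR333C and PHO23 (0.81). Of these, MET32 alone is in the sulphur lists. Its log2 value was 2.97 at 0 min, 5.71 at 15 min, 6.24 at 60 min, 5.54 at 75 min and 3.89 at 225 min, whereas NMT1 ranged only from 6.92 to 7.60 in the starvation libraries.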

How the data were processed

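Per the submitters' processing notes, reads were aligned with Bowtie (version not given in the sources used here) to build R64; the counting program, annotation and filters are not given. The deposited table holds log2 values, 1 column a library. Raised back, each column sums to 1000000, so the deposited values are log2 reads per 1000000 reads of listed genes. The design text speaks of normalization to the first time point, but the 0 min column holds levels, not zeros, and ratios to it were computed here. Genes under a floor in a library have no value, and none was imputed. A name on 2 entries and unnamed entries were left out. With the lowest value of each library taken as 10 reads, 96.1% to 97.2% of values under 200 reads were whole reads within 0.01 in the 14 deeper libraries, and 87.6% and 88.7% in the others.

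Slopes, splines and window differences were fitted across all genes with limma 3.58.1 in R 4.3.3 (least squares per gene over the values it has, variances moderated by limma's squeezeVar with a mean-variance trend, two-sided, Benjamini-Hochberg adjustment). Slope and spline needed at least 8 values, windows at least 2 each; a called slope or window difference was at least 1 (log2). With no replicates, p-values measure the scatter of successive libraries of what the labels describe as 1 time course, which may not be independent. The functions were checked on simulated data. All members are named, with called genes of the other lists (at most 4 a list) and the 8 genes most like the members' mean. Since SUL1 has 2 values, that mean was taken over the other 8. Among genes outside that rule, BDS1, the regulators and MET8 were named after their values were seen. Members and lists were chosen with earlier results of these data known. Alternatives are given at the end; voom weights and centring of the deeper libraries were added after the data were seen.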

Additional observations from a re-analysis of the deposited data

How the results depend on the processing

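The number of the 8 genes called by the slope was 1 (MET14) and stayed 1 under 10 other settings, but was 0 with the lag-1 autocorrelation removed and 0 with the 0 min library added (MET14 at -0.99, limma adjusted p = 0.254); leaving out 1 library at a time it ranged from 0 to 1, with MET14 at -2.21 to -1.66. The spline called 0, and 1 with the 13 deeper libraries centred on their median gene. From the first window to the last 0 of the 8 genes were called, and 0 to 1 leaving out 1 library at a time. MET14 alone was called without the libraries labelled 195 and 210 min, with quantile normalization, with voom weights and with the 13 deeper libraries centred. Over all genes, those settings called 106 rising and 145 falling, 40 and 167, 92 and 143 (of 4500), and 72 and 159. The main fit called 64 rising and 9 falling. The cause was not tested. The other 2 window counts stayed at 0 in every setting run. Over all genes the slope called 85 rising and 15 falling, but 164 and 174 without the libraries labelled 195 and 210 min, 76 and 169 with quantile normalization, 278 and 18 with centring and 3 and 0 with the autocorrelation removed. Of the called genes in the other lists, MET6 was also lost with the 0 min library added (limma adjusted p = 0.0573), and quantile normalization moved SAM2 to -3.99 and MET6 to -2.57. The median ratio of the 8 genes to 0 min over 15 to 75 min, 1.64, was 1.46 with centring, 1.33 with the deeper libraries centred and 1.55 to 1.84 leaving out 1 library at a time. Requiring all 15 values left none of the genes. No paired analysis was possible because each time point has 1 library.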
